A study of Arabidopsis thaliana with 11 samples.

Results

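The class II homeodomain-leucine zipper (HD-ZIP II) genes examined here are ATHB2, ATHB4, HAT1, HAT2, HAT3, HAT9, HAT14, HAT22 and ATHB17. They were chosen by locus and are 9 of the 37899 annotated nuclear genes and of the 27444 that code for protein. The tenth family member looked up here, ATHB18, was not among the 9 and is given beside them. Binding of the light-signalling transcription factor HY5 was measured by chromatin immunoprecipitation and sequencing with a Flag antibody, in whole Arabidopsis thaliana seedlings of ecotype Columbia. HY5-VP16 (3 libraries) is HY5 joined to the VP16 activation domain, HY5-SRDX (2 libraries) is HY5 joined to the SRDX repression domain, and HY5ox (3 libraries) is HY5 with no added domain. The series' design text gives the same viral promoter (35S) and FLASH tag for all 3 constructs, so binding is that of a protein made under a constitutive promoter rather than under HY5's own. The 3 controls, which entered only through the authors' peak calls, were Columbia seedlings for sets 1 and 3 and a library named hy5 for set 2. All seedlings were stratified for 7 days at 4 °C, given 1 h of light to germinate, kept for 3 days in darkness at 21 °C and then lit for 2.5 h with simulated white light (100 µmol per square metre and second). No library comes from shaded plants and no expression was measured, so the response of these genes to shade was not observable in these files. The labels do not say whether replicate libraries are independent plant lines or growths, so their spread may be technical, nor whether the plants with a tagged protein also kept their own HY5.

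HD-ZIP II proteins pair through a leucine zipper, bind DNA through a homeodomain and mostly act as repressors of transcription. ATHB2, ATHB4, HAT1, HAT2 and HAT3 are known as genes that rise quickly when far-red light from neighbouring leaves lowers the red to far-red ratio, and ATHB2 is a classic early marker of that response. HAT9, HAT14, HAT22 and ATHB17 belong to other branches of the family. HY5 is a basic leucine zipper protein that promotes greening and limits stem growth in light.

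HAT2 was the HD-ZIP II gene bound throughout: it had a promoter peak in 8 of 8 libraries. This depended on peak strength: with peaks at 5-fold or more over control, or with each list limited to its strongest 2958 peaks, 0 members were in all 8 libraries, against 1.29% and 2.02% of protein-coding genes. ATHB17 was listed in 6 libraries, ATHB2 and HAT1 in 5, HAT3 and HAT14 in 4, ATHB4 in 2, and HAT9 and HAT22 in 1 each. ATHB18 was listed in none. A gene counts as listed in a library when the authors assigned it a peak there, either within 2000 bp upstream of the start site or in the gene body. Each of the 9 members was thus listed at least once, where 81% of protein-coding genes were (65.7% of nuclear genes). At 5-fold or more 8 members were listed at least once, against 60.6% of protein-coding genes, and with the strongest 2958 peaks 3 members were, against 29.1%. Listing in all 8 libraries was reached by 1 member, HAT2, where the share of protein-coding genes was 6.58% (4.94% of nuclear genes), and a promoter peak in all 8 by the same gene, against 4.91% of protein-coding genes (3.7% of nuclear genes). At least 5 libraries listed 4 of the 9 members, against 30% of protein-coding genes (22.8% of nuclear genes). The median member was listed in 4 libraries and the median protein-coding gene in 2. The 5 genes known from low red to far-red light filled 24 of their 40 gene and library pairs, and the other 4 members filled 12 of 32. HAT2 alone gave 8 of the 24, and protein-coding genes filled 37.6% of their pairs.

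**Figure D1:**
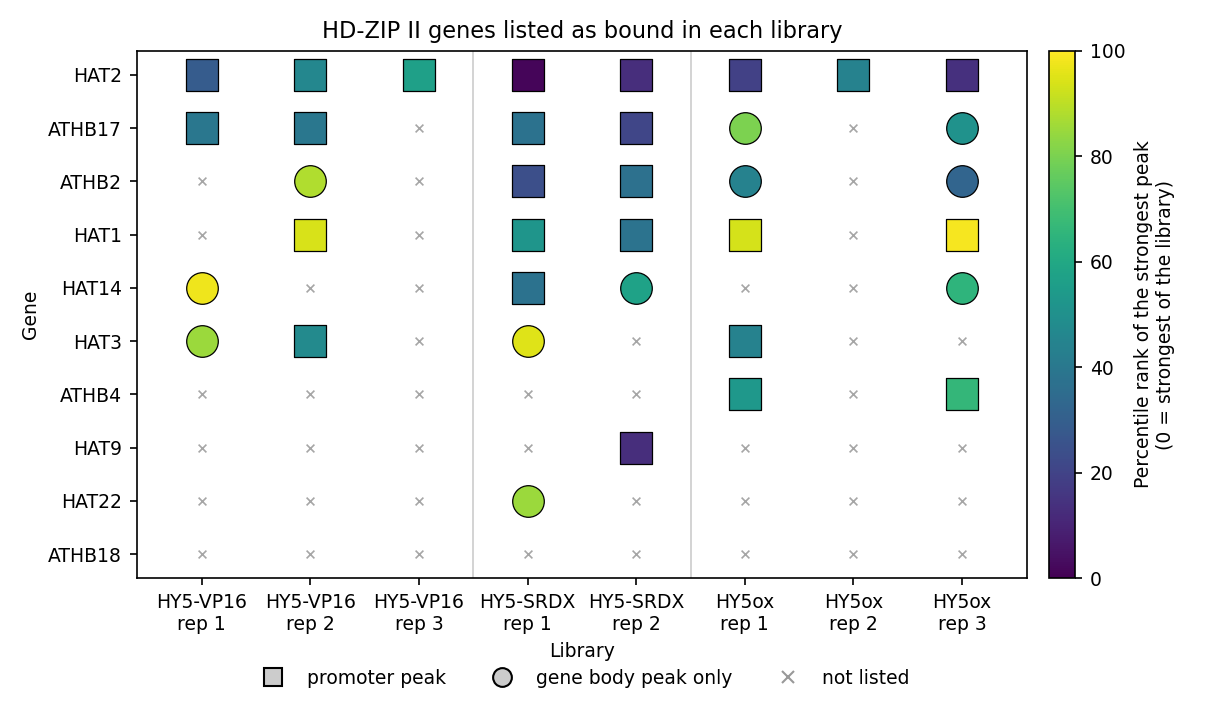
Each row is a gene and each column a library, with HY5-VP16, HY5-SRDX and HY5ox from left to right. Squares are genes with a promoter peak, circles genes with gene body peaks only, crosses genes not listed, and colour gives the percentile rank of the gene's strongest peak in that library's own list (0 is strongest). HAT2 has a square in all 8 columns, and HY5-VP16 replicate 3 and HY5ox replicate 2 hold no other member.

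**Figure D2:**
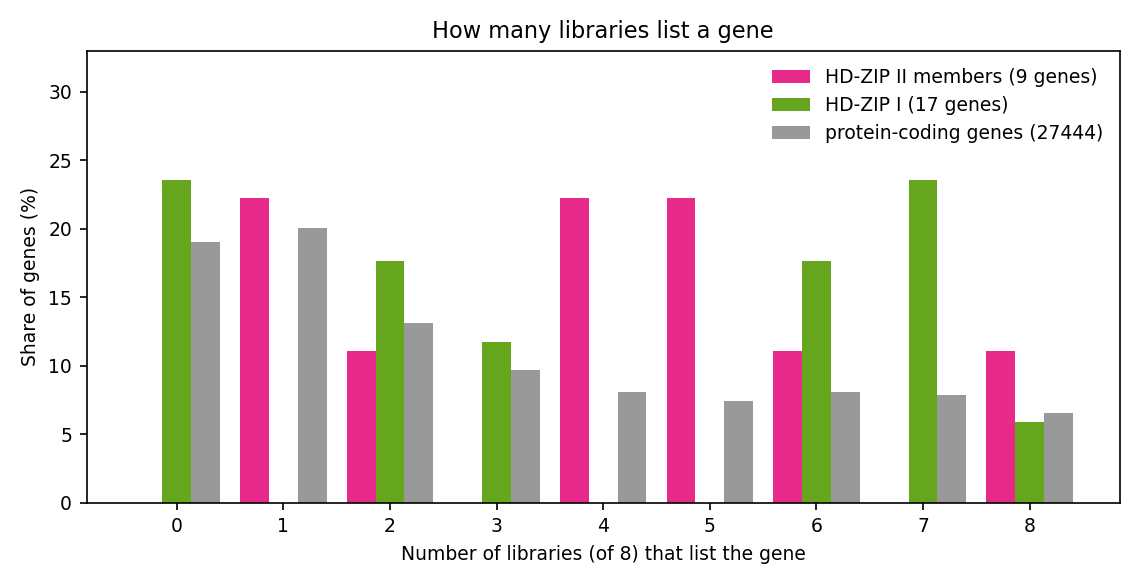
The x axis is the number of libraries that list a gene and the y axis the share of genes in percent, for the 9 HD-ZIP II members, the 17 HD-ZIP I genes and the 27444 protein-coding genes. The members spread from 1 to 8 libraries with 2 genes at 1, and none of them is at 0.

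The number of members listed varied widely within HY5-VP16 and HY5ox. The HY5-VP16 libraries listed 4, 5 and 1 of the 9 members in replicates 1, 2 and 3, where they listed 34.9%, 44.6% and 12.4% of protein-coding genes (26.8%, 34.2% and 9.43% of nuclear genes). The HY5-SRDX libraries listed 7 and 6 members, with 52.5% and 40.4% of protein-coding genes (42.7% and 31.1% of nuclear genes). The HY5ox libraries listed 6, 1 and 6 members, with 46.4%, 28.9% and 41% of protein-coding genes (35.8%, 22.2% and 31.6% of nuclear genes). In 6 libraries the members' share was above that of protein-coding genes, and in HY5-VP16 replicate 3 and HY5ox replicate 2 it was below, where 1 gene of 9 is 11.1%. Those 2 libraries had the shortest peak lists, 2958 and 7043 peaks, against 9514 to 20509 in the other 6. The share of tags that fell in peaks was 1.83% in HY5-VP16 replicate 3 and 5.94% to 10.1% elsewhere, and HY5ox replicate 2 was the library of set 2, collected apart from the others. Depth ran from 11.5 M tags in HY5ox replicate 2 to 56.0 M tags in HY5-VP16 replicate 3. The part of list length, depth and set in these counts was not tested.

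Every HY5-VP16 library listed 1 member, HAT2, against 10.7% of protein-coding genes (8.14% of nuclear genes). Both HY5-SRDX libraries listed 5 members, HAT2, ATHB17, ATHB2, HAT1 and HAT14, against 26.4% of protein-coding genes (19.9% of nuclear genes). Every HY5ox library listed 1 member, again HAT2, against 23.5% of protein-coding genes (17.9% of nuclear genes). The means were 3.33 ± 2.08 members in HY5-VP16 (SD, n = 3), 6.5 ± 0.707 in HY5-SRDX (n = 2) and 4.33 ± 2.89 in HY5ox (n = 3). HY5-VP16 differed from HY5ox by -1 member, and the groups overlapped. The difference was 0.667 with peaks at 5-fold or more. Without HY5-VP16 replicate 3 that difference was 0.167, without HY5ox replicate 2 it was -2.67, without HY5-VP16 replicate 2 it was -1.83, and without HY5ox replicate 1 or replicate 3 it was -0.167. HY5-SRDX differed from HY5ox by 2.17 members, again with overlapping groups, and by 0.5 without HY5ox replicate 2. At 5-fold or more it was 3.83 and the groups separated (5 and 6 members in HY5-SRDX, and 3, 0 and 2 in HY5ox). With promoter peaks only it was 2.33 and they also separated (5 and 5, and 4, 1 and 3), and with the strongest 2958 peaks it was 1.33 with overlap (1 and 3, and 1, 0 and 1). Over all libraries, an average of 21.9% of protein-coding genes were listed at 5-fold or more and 31.1% with promoter peaks only. These shares were not computed by construct, so the separations were not told apart from a general difference in listing. HY5-VP16 differed from HY5-SRDX by -3.17 members without overlap, and by -2 without HY5-VP16 replicate 3. The groups met at 5-fold or more (2, 5 and 0 members in HY5-VP16 libraries, 5 and 6 in HY5-SRDX libraries) and with the strongest 2958 peaks (1, 0 and 1, and 1 and 3), where the difference was -1.33. With all peaks, the mean share of protein-coding genes listed rose in the same order as the mean member counts. It was 30.6% for HY5-VP16, 38.8% for HY5ox and 46.45% for HY5-SRDX. Single libraries overlapped in that share, with 44.6% for HY5-VP16 replicate 2 and 40.4% for HY5-SRDX replicate 2. The part of general listing in the member differences was not tested. Both HY5-SRDX libraries are of set 1, whereas HY5ox replicate 2 is of set 2 and replicate 3 of HY5-VP16 and of HY5ox is of set 3. Construct is thus partly confounded with set and its control in these comparisons. Within set 1, which holds all constructs, the differences were -1.5 for HY5-VP16 against HY5ox, 0.5 for HY5-SRDX against HY5ox and -2 for HY5-VP16 against HY5-SRDX. A count over chosen members was given no p-value.

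Gene by gene, the listing of each of 25263 genes was compared between constructs with a two-sided exact permutation test over libraries, whose smallest possible p is 0.1. It called 0 genes in each of the 3 comparisons after Benjamini-Hochberg adjustment, and 0 genes had an unadjusted p under 0.05. ATHB4 was listed in 0 of 3 HY5-VP16, 0 of 2 HY5-SRDX and 2 of 3 HY5ox libraries (unadjusted exact permutation p = 0.4 for HY5-VP16 and for HY5-SRDX against HY5ox; adjusted p = 1 and 0.756). ATHB2 and HAT1 were each listed in 1 of 3 HY5-VP16 libraries, 2 of 2 HY5-SRDX libraries and 2 of 3 HY5ox libraries (unadjusted exact permutation p = 0.4 for HY5-VP16 against HY5-SRDX, adjusted p = 0.847). No member could be called different between constructs at this number of libraries, which does not show that the constructs bound them alike.

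Together the members had 60 peaks in the 8 libraries, spread over 36 of 72 gene and library pairs. The deposited fold of these peaks over the control ran from 3.03, close to the authors' minimum of 3, to 213.74, with a median of 5.3. Their percentile ranks, in which 0 is the strongest and 100 the weakest peak of the same library, ran from 1.41 to 98.5 with a median of 52.2. Only 1 of the 60 peaks, at HAT2, was in the strongest 10% of its library. Peaks of different libraries that overlapped by at least 1 bp were joined into regions, which gave 28 regions, 14 of them found in more than 1 library. Peaks were joined in chains, so not all peaks of a region need overlap each other.

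Promoter peaks made up 34 of the 60 member peaks and gene body peaks 26. By construct the promoter peaks were 9 of 17 in HY5-VP16, 15 of 27 in HY5-SRDX and 10 of 16 in HY5ox. Over all genes, promoter peaks were 74.6% to 85.2% of the gene and peak pairs in HY5-VP16 libraries, 56.5% and 76.9% in HY5-SRDX libraries and 83.9% to 86.8% in HY5ox libraries. ATHB17 alone held 11 of the 26 gene body peaks. Without it, 29 of 44 member peaks (65.9%) were promoter peaks, against 56.7% with it.

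**Figure D3:**
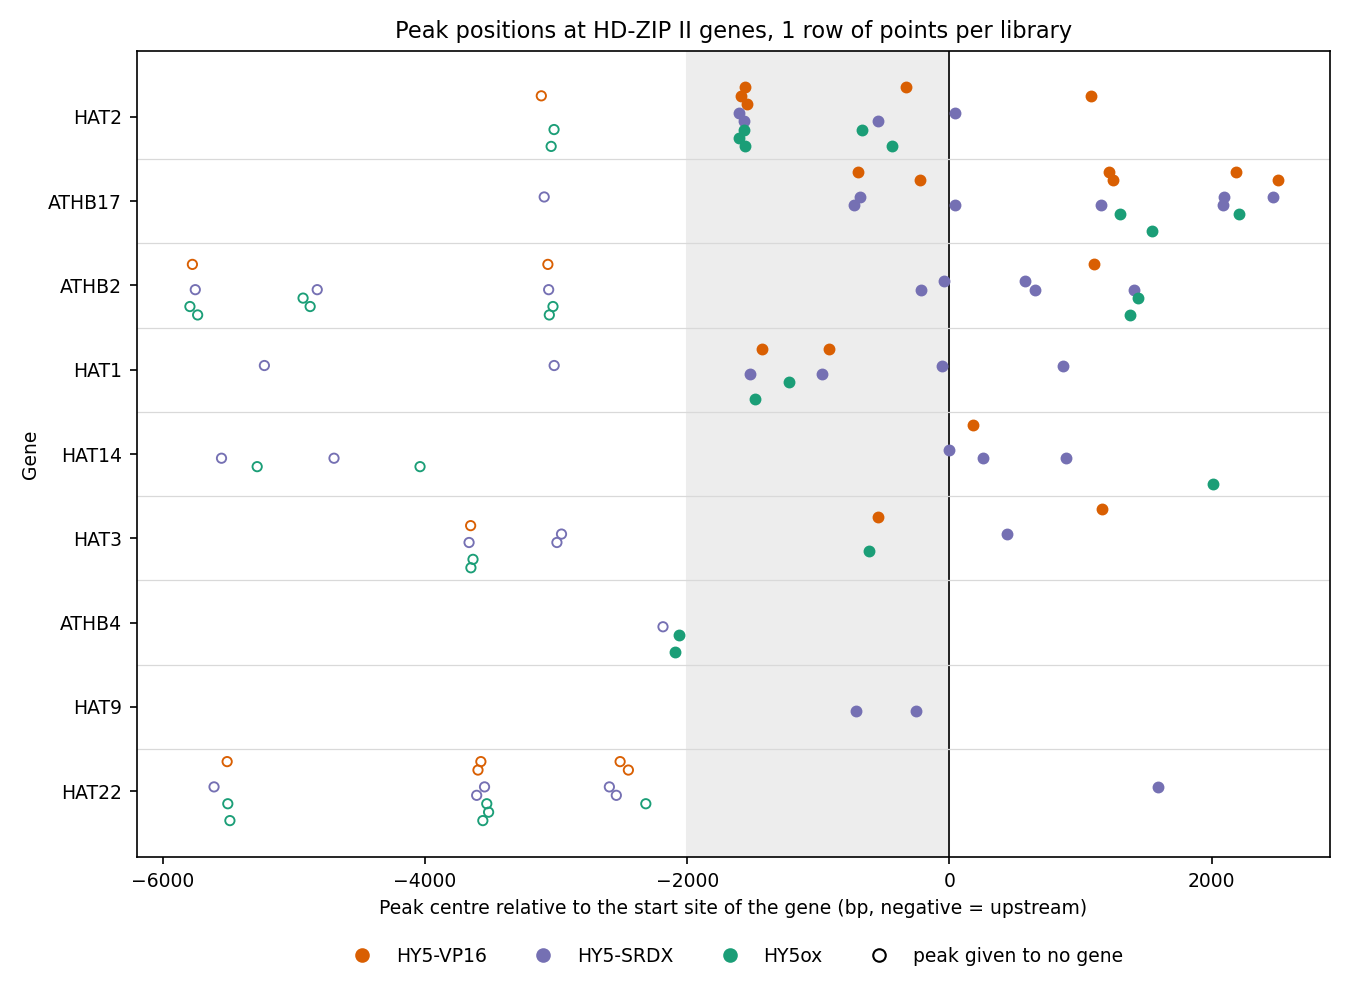
The x axis is the distance of each peak centre from the start site of its gene in bp, with the 2000 bp promoter window shaded, and each gene has 1 row of points per library, HY5-VP16 above HY5-SRDX above HY5ox. Filled points are peaks assigned to the gene, and hollow points are peaks within 6000 bp upstream that the authors gave to no gene. Points of 8 libraries line up at -1608 to -1544 bp of HAT2, and hollow points of 7 libraries at -3606 to -3515 bp of HAT22.

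HAT2 (AT5G47370, chromosome 5, 19216313 to 19217909, minus strand, TAIR10) encodes an auxin- and shade-responsive HD-ZIP II protein. Its distal promoter peak, at 19219322 to 19219658 over all libraries, was centred at -1608 to -1544 bp from the start site in 8 of 8 libraries. The authors' deposited merged table holds a region of the same coordinates among those found in all 8 libraries, and HAT2 is the only member among that table's 1272 genes (4.28% of protein-coding genes). The deposited normalised tags of this peak, scaled to 10 M tags, were 69.5, 41.6 and 52.3 in HY5-VP16, 37.8 and 62.4 in HY5-SRDX, and 97.9, 79.9 and 140.5 in HY5ox. The 3 HY5ox values lay above the other 5, and the HY5-VP16 and HY5-SRDX values overlapped. The share of other peaks with this order was not computed, so the order is not shown to be particular to HAT2. Peak width is set per library and ran from 167 to 301 bp. It was 273, 283 and 301 bp in HY5ox and at most 257 bp in the other libraries. The order of the tag values thus cannot be told apart from that of peak width. Tags were not divided by width, and these tag values are descriptions that were not tested. The deposited fold over control was 10.9, 5.08 and 3.8 in HY5-VP16, 4.62 and 9.79 in HY5-SRDX, and 11.96, 4.08 and 8.71 in HY5ox, and here the 3 groups overlapped. The lowest folds were those of HY5-VP16 replicate 3 and HY5ox replicate 2.

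**Figure D4:**
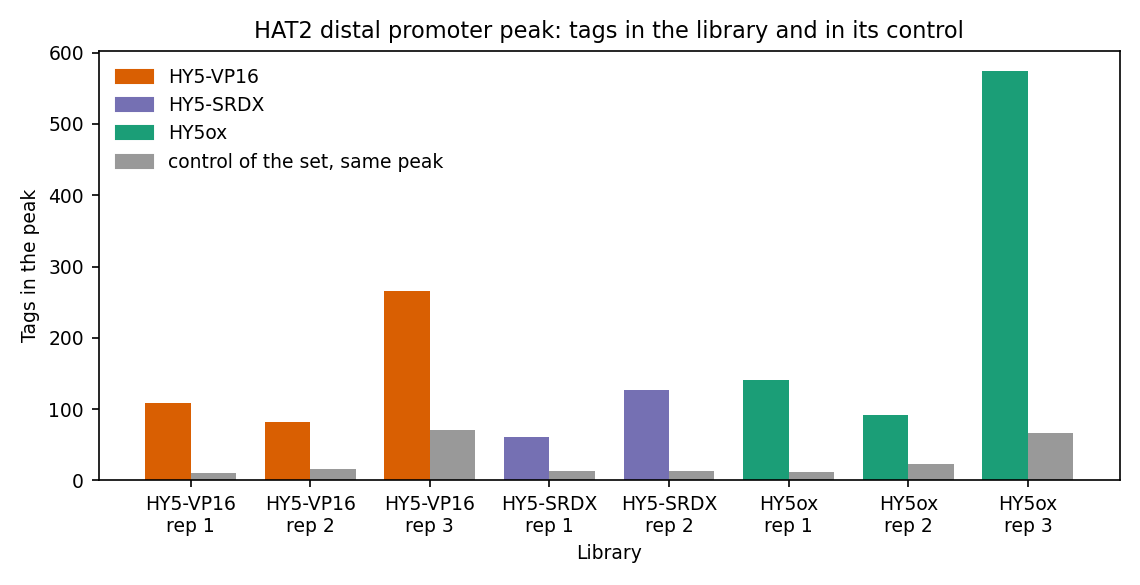
Bars give the deposited tags in the HAT2 distal promoter peak (y axis, tags) in each library, coloured by construct, beside the tags of the control of its set in the same peak (grey). The authors scaled the control tags to the immunoprecipitated library, except in HY5-VP16 replicate 3, where it was the peak's tags that were scaled. Each library holds at least 3.8 times the tags of its control, with 266 against 70 in HY5-VP16 replicate 3 and 574 against 65.9 in HY5ox replicate 3.

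A second, proximal HAT2 region, centred between -669 and -333 bp, was listed in HY5-VP16 replicate 1, HY5-SRDX replicate 2 and HY5ox replicates 1 and 3, with folds of 4.29, 6.93, 7.9 and 5. Within it, the peaks of HY5-VP16 replicate 1 and HY5ox replicate 1 did not overlap each other. HY5-SRDX replicate 1 had a peak at the start site itself (39 bp) that ranked 291 of 20509, the strongest member peak relative to its own list. The authors also assigned that peak, and a gene body peak of HY5-VP16 replicate 2 at 1077 bp, to the neighbouring gene AT5G47360. The distal region was assigned to HAT2 alone. Over the 8 libraries, the percentile rank of the strongest HAT2 peak was 27.8 ± 19.3 (SD, n = 8). The strongest peak was the distal one except in the HY5-SRDX libraries.

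ATHB2 (AT4G16780, chromosome 4, 9449115 to 9450743, plus strand), the classic shade marker, was bound mostly inside the gene. Promoter peaks were listed only in the HY5-SRDX libraries, centred at -44 bp in replicate 1 and -219 bp in replicate 2. Their deposited folds were 11.7 and 213.74. The first held 43 tags against 3.7 control tags, at percentile 84.8 of its library. The second rests on 0.5 control tags, and its 99 tags placed it at percentile 36.9 of its library. These 2 promoter peaks overlapped only between 9448988 and 9449000. Both HY5-SRDX libraries also had a gene body peak at 576 and 650 bp, with folds of 6.82 and 6.21. A region towards the downstream end, centred between 1380 and 1438 bp, was shared by HY5-SRDX replicate 2 (fold 3.9) and HY5ox replicates 1 and 3 (folds 5.27 and 6.5). HY5-VP16 replicate 2 had a single gene body peak at 1104 bp (fold 5.06). No HY5-VP16 or HY5ox library had an ATHB2 promoter peak (0 of 3, 2 of 2 in HY5-SRDX, and 0 of 3 libraries). Counting any assigned peak, 1325 of 25263 genes were listed in both HY5-SRDX libraries and in no HY5ox library. For both HY5-SRDX libraries and no HY5-VP16 library it was 1386 genes. ATHB2 is in neither count, since gene body peaks listed it in 2 HY5ox libraries and 1 HY5-VP16 library. The share of all genes with such a split of promoter peaks was not computed.

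HAT1 (AT4G17460, chromosome 4, 9739664 to 9741146, plus strand), a repressor in brassinosteroid and shade signalling, had promoter peaks in 5 libraries. One region, centred between -1525 and -1227 bp, was shared by HY5-VP16 replicate 2 (fold 6.35), HY5-SRDX replicate 2 (9.82) and HY5ox replicates 1 and 3 (4.89 and 3.92). Within it, the peaks of HY5-SRDX replicate 2 and HY5ox replicate 1 did not overlap each other. A nearer one, at -918 and -974 bp, was shared by HY5-VP16 replicate 2 (10.8) and HY5-SRDX replicate 2 (11.2). Of the 8 HAT1 peaks, 7 were also assigned by the authors to AT4G17450 or AT4G17453, so the files do not tie them to HAT1 alone. The HAT1 peaks of HY5-VP16 replicate 2 and of both HY5ox libraries were weak within their lists, at percentiles 93.5 to 98.5.

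HAT3 (AT3G60390, chromosome 3, 22320596 to 22322586, minus strand), which acts with ATHB4 in leaf polarity and shade growth, had a promoter region in HY5-VP16 replicate 2 and HY5ox replicate 1, centred at -543 and -612 bp with folds of 11 and 19.1. HY5-VP16 replicate 1 and HY5-SRDX replicate 1 had gene body peaks instead, at 1163 and 438 bp with folds of 4.76 and 3.03, and these did not overlap. ATHB4 (AT2G44910, chromosome 2, minus strand, start site at 18519525) was listed through 2 peaks at the very edge of its promoter window. They were centred at -2061 bp in HY5ox replicate 1 (fold 3.47) and -2092 bp in HY5ox replicate 3 (fold 3.89), and reached 76 and 59 bp into the window. A peak of HY5-SRDX replicate 2 (fold 4.72) overlapped both but began 81 bp beyond the window and was given to no gene. Listing of ATHB4 in HY5ox alone thus rests on the 2000 bp limit: the region itself was found in 3 libraries of 2 constructs.

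ATHB17 (AT2G01430, chromosome 2, 187799 to 190369, minus strand), which is linked to abscisic acid and stress responses, had the most peaks of any member, 16 in 6 libraries. Its most widely shared region lay in the gene body between 1157 and 1541 bp and was found in HY5-VP16 replicates 1 and 2 (folds 3.83 and 4.09), HY5-SRDX replicate 2 (5.32) and HY5ox replicates 1 and 3 (4.2 and 4.64). Within it, the peak of HY5ox replicate 3 overlapped only that of HY5ox replicate 1. A second gene body region, between 2087 and 2208 bp, was found in 4 libraries. A promoter region between -731 and -686 bp was found in HY5-VP16 replicate 1 and both HY5-SRDX libraries, with folds of 3.4, 3.07 and 4.17. A promoter peak at -227 bp (fold 5.73) was found in HY5-VP16 replicate 2 alone. Promoter peaks at ATHB17, at unlike positions, thus occurred in 2 of 3 HY5-VP16, 2 of 2 HY5-SRDX and 0 of 3 HY5ox libraries. The share of all genes with this split of promoter peaks was not computed. Near the start site (45 bp), HY5-SRDX replicate 2 had a peak of 25.1-fold over 3.7 control tags.

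HAT14 (AT5G06710, chromosome 5, 2068066 to 2070361, minus strand) had a region at its start, between -5 and 259 bp, in HY5-VP16 replicate 1 (fold 3.13) and HY5-SRDX replicates 1 and 2 (9.37 and 3.06). The HY5-SRDX peaks of this region did not overlap each other, and both overlapped the HY5-VP16 peak. HY5-SRDX replicate 2 had a further peak at 885 bp (fold 8.64), and the single HY5ox peak, in replicate 3, lay at 2006 bp (fold 3.52). HAT9 (AT2G22800, chromosome 2, minus strand, start site at 9706150) was listed in HY5-SRDX replicate 2 alone, with promoter peaks at -257 and -714 bp and folds of 9.12 and 5.1. HAT22 (AT4G37790, chromosome 4, 17768043 to 17769606, plus strand), known to limit growth under abscisic acid, was listed in HY5-SRDX replicate 1 alone, through a peak over its downstream end at 1587 bp (44 tags against 2.9 control tags). Each of these last 2 genes was thus missing from the other HY5-SRDX library.

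HAT22 nevertheless had the most recurrent binding outside the promoter window. Peaks that the authors gave to no gene were looked up between 2000 and 6000 bp upstream of each start site, a search chosen after the positions had been seen. One region, centred between -3606 and -3515 bp of HAT22 (chromosome 4, 17764333 to 17764669), was found in 7 of 8 libraries. Its normalised tags were 70.1 and 69.9 in HY5-VP16 replicates 1 and 2, 32.9 and 125.7 in the HY5-SRDX libraries, and 84.7, 96.4 and 97.9 in the HY5ox libraries, and HY5-VP16 replicate 3 had no peak there. The constructs overlapped, since the HY5-SRDX libraries held both the lowest and the highest value. Its folds ran from 4.35 to 18.4 and its percentile ranks from 2.14 to 32.3. A nearer region, between -2594 and -2316 bp, was found in 5 libraries, with percentile ranks from 1.13 to 34.7. Within it, the peaks of HY5-SRDX replicate 1 and HY5ox replicate 1 did not overlap each other. Start sites came from assigned peaks, so the 5224 protein-coding genes listed in no library were not searched. An unassigned region in at least 5 libraries occurred upstream of 2.66% of the 22220 protein-coding genes with a start site in the files, and upstream of 1 of the 9 members. The files do not say which gene, if any, these regions serve.

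Upstream of other members, unassigned regions were found in fewer libraries. ATHB2 had a region between -3063 and -3024 bp in 4 libraries, HY5-VP16 replicate 2, HY5-SRDX replicate 2 and HY5ox replicates 2 and 3, and another between -5793 and -5734 bp in the same 4. HAT3 had one between -3664 and -3634 bp in HY5-VP16 replicate 3, HY5-SRDX replicate 2 and HY5ox replicates 2 and 3, so that HY5-VP16 replicate 3 and HY5ox replicate 2 held a peak near HAT3 without listing the gene. HAT2 had one between -3113 and -3016 bp in 3 libraries.

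The related HD-ZIP I genes, many of which act in drought and abscisic acid responses, were listed in a median of 3 libraries, with 8 of 17 in at least 5. ATHB16 was listed in all 8, and ATHB1, ATHB7, ATHB12 and ATHB20 in 7, while ATHB13, ATHB21, ATHB22 and ATHB54 were listed in none. The mean percentile rank of the strongest peak was 27.8 for HAT2 over 8 libraries, against 12.7 over 7 for ATHB12, the best of these 5. Libraries that did not list a gene were left out of its mean, so the means of HAT2 and ATHB12 cover unlike sets of libraries. Over the same 8 libraries as HAT2, ATHB16 had a mean of 19.9. The HD-ZIP III genes, which set leaf polarity, and their ZPR partners, small proteins that inhibit them, were listed in a median of 1 library, with 1 of 9 in at least 5. No member of that list was at 7 or more libraries or at 0. Shade pathway genes were listed in a median of 4.5 libraries, with 8 of 16 in at least 5. PHYB, the photoreceptor of red and far-red light, and HFR1, an inhibitor of growth-promoting PIF factors, were listed in all 8, and PAR2, another such inhibitor, in 7. The mean percentile rank over 8 libraries was 27.8 for PHYB and 9.03 for HFR1. YUC2, an auxin synthesis gene, and IAA29, an auxin response gene, were listed in none. These counts are descriptions and the differences between lists were not tested.

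Outside these lists, the genes whose percentile ranks were most like those of HAT2 over the 8 libraries were AT1G11040 and AT1G11050, which share 1 peak in each library, and TCP14. The measure was the Euclidean distance of log10 percentile ranks, 0.288 for the pair and 0.431 for TCP14, among 25216 genes. The HAT2 ranks were 28.7, 46.3 and 56.3 in HY5-VP16, 1.41 and 12.97 in HY5-SRDX, and 19.3, 43.8 and 13.8 in HY5ox. TCP14 had 22.4, 46.3 and 76.0 in HY5-VP16, 2.67 and 19.5 in HY5-SRDX, and 18.4, 46.6 and 22.9 in HY5ox. The authors' deposited merged tables for replicates 1 and 2 held HAT2 and ATHB17 for HY5-VP16, ATHB2, HAT2 and ATHB17 for HY5-SRDX, and HAT2 alone for HY5ox. Of protein-coding genes, these tables held 23.6% for HY5-VP16, 13.1% for HY5-SRDX and 24% for HY5ox. The members were thus near or below the general share in HY5-VP16 and HY5ox (2 and 1 of 9) and above it in HY5-SRDX (3 of 9).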

How the data were processed

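The submitters' processing notes name HOMER 4.9.1, Bowtie2 2.3.0, CASAVA 1.8.2 and the TAIR10 build. Each library had its peaks called, per the file headers, against the control of its set (false discovery rate 0.001; 3-fold over control, Poisson p-value 0.0001; 2-fold over the local 10 kb, p-value 0.001). The deposited p-values are the peak caller's, per the file headers. The deposited signal is a peak's tags scaled to 10 M, the deposited tag counts are those compared with the control, the deposited fold is their ratio, and the deposited score ranks peaks; they are the authors' values, used within 1 list. For the fold, the control was scaled to the library, except that HY5-VP16 replicate 3 was itself scaled to its control, per the file headers. The authors assigned peaks to genes. From these files, listings, percentile ranks by score, centre distances and overlaps (1 bp) were computed with Python 3.11.15, numpy 2.4.6, pandas 2.3.3 and matplotlib 3.10.9. Gene types came from a RefSeq table (TAIR10.1, no coordinates taken), which 24902 of 25263 listed identifiers matched. Peaks with both assignments counted as promoter peaks. The permutation test was tested on simulated data. Alternatives were promoter peaks only, 5-fold over control, equal list lengths, an overlap of 0.5 of the shorter peak, ranking by fold, set 1 alone, each replicate left out and same-number pairs. The members and lists were chosen with earlier results of these data known. Named genes are all members and ATHB18, genes of the other lists in at least 7 or in no libraries, and the 3 nearest to HAT2; neighbours are named where they share a member's peak. Sequences and motifs were not analysed here.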

Additional observations from a re-analysis of the deposited data

How the results depend on the processing

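Counts depended on peak strength. With peaks at 5-fold or more over control, members in all 8 libraries were 0 and the difference of HY5-VP16 from HY5ox was 0.667 (-1 with all peaks). With each list limited to its strongest 2958 peaks, the members per library averaged 1 (11.1% of members, and 12.04% of protein-coding genes) against 4.5 (50% and 37.6%), those in all 8 libraries were 0, those in at least 1 library were 3 against 9, and HY5-VP16 differed from HY5-SRDX by -1.33 against -3.17. That alternative shortens the lists by construction. Leaving out 1 library at a time, the difference of HY5-VP16 from HY5ox ran from -2.67 to 0.167 (turning sign without HY5-VP16 replicate 3), that of HY5-SRDX from HY5ox from 0.5 to 3, and that of HY5-VP16 from HY5-SRDX from -4 to -2. Members per library ran from 4.14 to 5, with 1 member in all libraries kept each time and 8 or 9 in at least 1. Ranking by fold moved the mean percentile of ATHB4 to 81.7 (59.6 by score), HAT1 to 38.4 (75.3), HAT9 to 29.2 (12.97) and HAT22 to 8.73 (84.8). The cause was not tested. Requiring an overlap of 0.5 of the shorter peak gave 13 regions in more than 1 library against 14. The listing test was repeated, as alternatives chosen after seeing the data, with promoter peaks only, 5-fold peaks, the strongest 2958 peaks and each replicate left out, and called 0 genes each time; with a smallest p of 0.1 or more it could call none, so this says nothing about stability. It was not repeated for set 1 or for pairs. Replicate numbers do not mark shared material in the labels: with a replicate block of same-number pairs, the differences were -1, 3 and -2 for HY5-VP16 and HY5-SRDX against HY5ox and HY5-VP16 against HY5-SRDX.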
